A study of Mus musculus with 22 samples.

Results

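Neural progenitor cells (NPCs) are dividing cells of the embryonic brain that can form neurons and glia, and in culture they grow under growth factors as undifferentiated monolayers. PHF8 is an X-linked histone demethylase. Its plant homeodomain binds trimethylated H3 lysine 4, a mark of active promoters, and its Jumonji C domain removes methyl groups from repressive marks on H3 and H4. It is known as an activator of ribosomal RNA genes and of cell cycle genes controlled by E2F factors. The question put to the NPC samples was which genes change when PHF8 is missing, in cells whose growth the loss had been found to affect.

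The samples described here are the 6 labelled as neural progenitor cells among 22 in the series: 3 *Phf8* KO and 3 wild type (WT). The other samples are 4 embryonic stem cell (ESC) samples, 6 of prefrontal cortex (PFC) and 6 of ventral striatum (STR) from mice of 2 months, and each of these sets holds equal numbers of WT and KO. NPCs were grown from E16.5 mouse embryos and kept as a monolayer on polyornithine. WT and KO share a mixed background, which the labels give as B6x129SvJ and the methods as C57B6 with the substrain 129SvJae. The KO allele lacks exons 7 and 8. It was made by targeting male V6.5 ESCs with *loxP* sites and a neomycin resistance cassette, followed by a transiently expressed Cre from a CMV promoter and expansion of single clones, so all KO cells descend from such clones. Labels and methods do not say whether samples of one genotype came from separate embryos or cultures, so p-values here measure the spread between these samples, which may be technical.

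The sequence missing from the KO allele is shown because it is the one designed difference between the groups. Both exons lie on chromosome X (GRCm38, plus strand) and carry the same numbers in the 7 full-length coding transcripts of GENCODE release M21. Exon 7 is 187 bases long (chrX:151554134-151554320) and exon 8 is 163 bases long (chrX:151555973-151556135). Capitals mark the only in-frame stretch in the 2 exons that codes for a histidine and an aspartate with 1 residue between them, the motif by which Jumonji C demethylases hold their iron.
exon 7: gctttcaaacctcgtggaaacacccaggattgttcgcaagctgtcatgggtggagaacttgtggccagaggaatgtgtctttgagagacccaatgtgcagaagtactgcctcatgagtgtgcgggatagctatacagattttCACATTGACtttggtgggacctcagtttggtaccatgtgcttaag
exon 8: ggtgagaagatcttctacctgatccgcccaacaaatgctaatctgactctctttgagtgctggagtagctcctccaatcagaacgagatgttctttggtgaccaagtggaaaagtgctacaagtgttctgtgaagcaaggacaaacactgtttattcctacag
Together they hold 350 bases, which leaves a remainder of 2 when divided by 3. Joined from exon 6 to exon 9, the reading frame shifts after 198 complete codons and meets a stop codon 23 codons later, in exon 9. The 2 exons are 3.76% of the 9318 exon bases annotated for the gene, and the counts are per gene, so reads from the rest of a truncated transcript remain in the KO values.

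Between 11798544 and 15539811 reads per NPC sample were counted on genes, and 14351 genes passed an expression filter. Before any comparison, some libraries stood apart from others of their label. WT replicate 2 was the sample farthest from the rest, and its partner KO replicate 2 lay in the same direction. Levels are given in CPM, counts divided by a library size that was scaled with the TMM method. Y-linked transcripts were unequal among samples, and the labels do not give the sex of the embryos: *Ddx3y* was at 23.5 CPM in WT replicate 1, at 184 CPM in WT replicate 2 and between 93.9 and 108 CPM in the other 4. *Xist*, the RNA that coats an inactive X chromosome, was at 18.8 and 21.6 CPM in KO replicates 1 and 3 and at most 3.32 CPM in the other 4 samples. The part of these differences in the results was not tested, and results are given below also without each replicate number.

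Neural progenitor markers as a set were abundant in every sample. The 22 summed to 11830 to 15490 CPM in WT and 13270 to 16240 CPM in KO samples. *Vim*, an intermediate filament of neural progenitors, ranged from 2658 to 3986 CPM. *Olig2*, a factor of glial-competent progenitors that is not on that list, ranged from 936 to 998 CPM. Oligodendrocyte lineage markers summed to 3445 to 6349 CPM in WT and 3935 to 6261 CPM in KO samples. Of the 15 tested, 12 were lowest in replicate 2 by the mean of WT and KO. Pluripotency markers were near 0, since *Nanog* reached at most 1.09 CPM, and 10 of 15 such genes failed the expression filter. Of 13 microglia and macrophage markers 2 passed the filter, and the 13 summed to 4.23 to 4.59 CPM in WT and 4.06 to 4.58 CPM in KO samples, with *Ptprc* at 0 in 5 of 6 samples. Of 13 endothelial and pericyte markers 4 passed, with *Cldn5* at 0 in all 6 samples and *Flt1* as the main source of a sum of 65.2 to 188 CPM in WT and 112 to 217 CPM in KO samples. Of these 4, 3 were higher in the KO, with a median log2 fold change of 0.707. *Vwf*, a protein of endothelial cells and platelets, was at 0.996 to 1.16 CPM in WT and 2.10 to 2.95 CPM in KO samples. The wider list was mixed: without the filter 6 of 12 markers were higher and 6 lower, with a median of 0.191. In a joint fit with ESCs 4 of 9 were higher and 5 lower, with a median of -0.138. The part of such cells in the results below was not tested. In bulk samples fewer cells of a type and less RNA per cell cannot be told apart.

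In the comparison of KO with WT, in which the replicate number of the labels was a block, 3 of 14351 genes (0.0209%) passed a false discovery rate (FDR) of 0.05, the p of a quasi-likelihood test in edgeR adjusted over all genes tested by the Benjamini-Hochberg method. All 3 fell in the KO: *Phf8* itself, *Ppp1r3e* and *Ulk2*. In the higher direction edgeR called 0 genes, against 752 genes (5.24%) with an unadjusted p under 0.05 that were higher and 756 (5.27%) that were lower. Without the block the same test called 1 gene (0.00697%), *Phf8*, and 435 genes (3.03%) had an unadjusted p under 0.05. The direction of the calls depended on the tool and the filter. With the block, DESeq2 called 20 genes, 16 higher and 4 lower, edgeR's likelihood ratio test 121, 86 higher and 35 lower, and the main test without the expression filter 13, 9 higher and 4 lower. By order of the samples alone, the genotypes did not overlap in 8.33% of genes, with every KO sample above every WT sample in 3.81% and below in 4.52%, and 34.7% of genes had 1 direction in all 3 pairs.

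*Phf8* (ENSMUSG00000041229, chrX:151520672-151633859) was at 35.9, 36.7 and 38.1 CPM in WT replicates 1, 2 and 3 and at 13.0, 14.5 and 13.9 CPM in the KO replicates. Every KO sample lay below every WT sample, and the 3 samples of a genotype were close to each other. The WT mean was 36.9 ± 1.14 CPM and the KO mean 13.8 ± 0.738 CPM (SD, n = 3 each). *Phf8* RNA in the KO was thus at 37.5% of WT, a log2 fold change of -1.42 (SE 0.08, edgeR FDR 0.0167). Per kilobase of transcript it was a gene of modest level, at 2.72 RPKM over the 6 samples.

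*Ppp1r3e* (ENSMUSG00000072494, chr14:54872669-54877550, minus strand) had the largest change among the 3 genes called. It belongs to a family of glycogen-targeting subunits of protein phosphatase 1, which bring the phosphatase to glycogen. Its values were 16.6, 14.4 and 18.9 CPM in WT and 3.96, 3.22 and 4.77 CPM in KO replicates 1, 2 and 3, so that the highest KO sample was well below the lowest WT sample. The KO level was 23.9% of WT, with a log2 fold change of -2.07 (SE 0.13, edgeR FDR 0.0167). In single pairs the log2 difference was -2.03, -2.11 and -1.96. Without the block its edgeR FDR was 0.191.

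*Ulk2* (ENSMUSG00000004798, chr11:61775649-61855073, minus strand) encodes a kinase related to the yeast autophagy kinase Atg1, one of a pair with ULK1 that start autophagy. It was at 153, 119 and 146 CPM in WT and 98.3, 76.2 and 93.5 CPM in KO replicates 1, 2 and 3. Replicate 2 was the lowest in both genotypes, and the genotypes did not overlap. The log2 differences in the 3 pairs were -0.64, -0.64 and -0.64, and the KO level was 64.2% of WT. The fitted log2 fold change was -0.64 (SE 0.05, edgeR FDR 0.0466). Without the block the SE was 0.14 and the edgeR FDR 1.

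**Figure D1:**
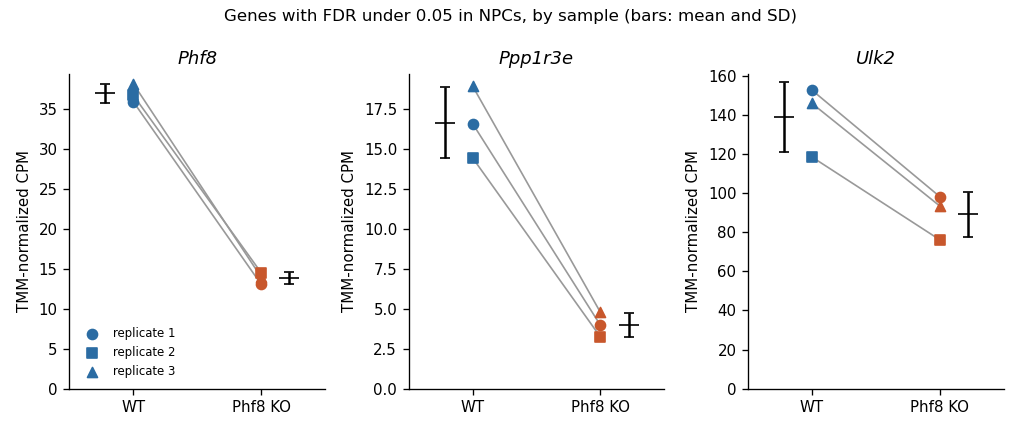
TMM-normalized CPM (vertical axes, from 0) of the 3 genes called in NPCs, by genotype, with grey lines joining WT and KO samples of the same replicate number and black bars giving the mean and SD of each genotype. In each panel all 3 KO samples lie below all 3 WT samples, and for *Ulk2* the 3 lines run nearly parallel.

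The log2 differences of these genes were alike in the 3 pairs, but their FDRs depended on which pair was left out. Leaving out a pair left fewer residual degrees of freedom than the 2 of the main fit, and the spread was estimated anew over all genes. Without replicate 2, whose samples stood apart, *Phf8* and *Ppp1r3e* had an FDR of 0.00650 in edgeR's test with the block and *Ulk2* one of 0.0147. Without replicate 1 the FDR of all 3 was 0.698, and without replicate 3 it was 0.155 for *Phf8* and *Ppp1r3e* and 0.228 for *Ulk2*. Without replicate 1 or 3 edgeR called 0 genes, with 1002 and 1052 genes at an unadjusted p under 0.05, and without replicate 2 it called 13, 8 higher and 5 lower. One of these was *Xist*, with a log2 fold change of 6.17 (edgeR FDR 0.0168), whose levels also differed among the KO samples. In the comparison without the block, leaving out any 1 sample gave *Phf8* an edgeR FDR of 0.154 to 0.544. The fold changes moved little: with 1 pair left out the log2 fold change of *Phf8* was between -1.46 and -1.39, that of *Ppp1r3e* between -2.11 and -2.02 and that of *Ulk2* was -0.64 each time.

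The neighbourhood of each gene was examined in turn. Within 2 Mb of *Phf8* on chromosome X, 32 of 93 annotated genes were tested, of which 16 were higher and 16 lower in the KO. None passed the threshold in the edgeR test, 4 had an unadjusted p under 0.05, and log2 fold changes ran from -0.37 to 0.28. *Fam120c* and *Huwe1*, which lie on either side of *Phf8*, had log2 fold changes of 0.07 (SE 0.06) and 0.09 (SE 0.06). Around *Ppp1r3e* on chromosome 14, a window chosen after its values were seen, 31 of 64 genes tested were higher and 33 lower, and 4 in each direction had an unadjusted p under 0.05. One of them was *Psmb5*, a catalytic proteasome subunit, at 19.3, 18.9 and 20.4 CPM in WT and 12.9, 12.6 and 13.2 CPM in KO replicates 1, 2 and 3, with a log2 fold change of -0.60 (SE 0.10) and an edgeR FDR of 0.331. Around *Ulk2* on chromosome 11, 29 of 59 genes were higher and 30 lower, and 5 had an unadjusted p under 0.05. For comparison, 10.5% of all genes tested had an unadjusted p under 0.05, and the counts in the 3 windows were near that share. Whether alleles of the mixed background differ between the samples at these places was not tested.

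*Phf2* and *Kdm7a* encode the other members of the KDM7 family of demethylases, to which PHF8 belongs. *Phf2* was at 126, 119 and 123 CPM in WT and 117, 120 and 115 CPM in KO replicates 1, 2 and 3. *Kdm7a* was at 76.2, 47.0 and 92.6 CPM in WT and 81.5, 48.8 and 92.3 CPM in the KO, so that replicate 2 was the lowest in both genotypes. The log2 fold changes were -0.07 (SE 0.06, edgeR FDR 0.693) and 0.05 (SE 0.06, edgeR FDR 0.781).

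Beyond the 3 called genes, the genes with the smallest p among those with one direction in all 3 pairs did not pass the threshold. Their edgeR FDR was between 0.111 and 0.331. They are described by their values, and for comparison 17.2% of all genes tested were higher and 17.5% lower in the KO in all 3 pairs. Some of them are neighbours. On chromosome 6, *Sfxn5* and *Smyd5* are annotated from bases 85213049 and 85431989, and *Mgll* and *Podxl2* from bases 88724412 and 88842558. On chromosome 8, *Piezo1* and *Fanca* are annotated from bases 122481698 and 123268300. On chromosome 14, *Psmb5* and the called *Ppp1r3e* are annotated from bases 54614119 and 54872669. Farther along that chromosome lie *Adra1a*, *4930480K23Rik* and *Fndc3a*, from bases 66635251, 69732784 and 72537946. Whether neighbouring genes changed independently, or alleles of the mixed background differ there, was not tested.

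Among the 12 on the higher side, *Hmga1* came first. It encodes an architectural chromatin protein that is abundant in embryonic and proliferating cells. It was at 59.4, 18.3 and 54.1 CPM in WT and 107, 37.6 and 85.9 CPM in KO replicates 1, 2 and 3, so each KO sample was above its partner while the genotypes overlapped through replicate 2. The log2 fold change was 0.84 (SE 0.08, edgeR FDR 0.111). *Reln*, which codes for the extracellular protein reelin that guides migrating neurons, was at 37.0, 36 and 77.4 CPM in WT and 65.1, 71.5 and 119 CPM in the KO, with a log2 fold change of 0.80 (SE 0.08, edgeR FDR 0.111).

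*Timp2*, an inhibitor of matrix metalloproteinases, was at 130, 170 and 123 CPM in WT and 244, 241 and 196 CPM in KO replicates 1, 2 and 3. Here the lowest KO sample exceeded the highest WT sample, and the log2 fold change was 0.69 (SE 0.08, edgeR FDR 0.272). *Fndc3a*, a transmembrane protein with fibronectin type III domains, also had no overlap, at 132 to 160 CPM in WT and 182 to 229 CPM in KO samples. *Adra1a*, an alpha-1 adrenergic receptor, was at 13.9 to 19.1 CPM in WT and 24.7 to 29.2 CPM in KO samples. The other members of the 12 were *Sfxn5*, a mitochondrial amino acid carrier, *Mgll*, the lipase that breaks down the endocannabinoid 2-AG, the mechanosensitive channel *Piezo1*, the phosphatase *Ptp4a3*, *Gpx8*, the ephrin ligand *Efnb2* and the unnamed locus *4930480K23Rik*. Their log2 fold changes were between 0.36 and 0.84. Exons of *Piezo1* share 24.6% of their bases with *Ctu2* on the other strand, and since counting did not use strand, reads of the 2 genes there cannot be told apart.

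The 12 on the lower side included the 3 called genes. Among the other 9, *Podxl2*, a sialomucin of the cell surface, was at 73.7, 75.6 and 64.8 CPM in WT and 48.2, 48.6 and 49.3 CPM in KO replicates 1, 2 and 3, without overlap. Its log2 fold change was -0.55 (SE 0.07, edgeR FDR 0.323), and 19.1% of its exon bases overlap *Gm15612* on the other strand. *Dgkk*, an X-linked diacylglycerol kinase, was at 59.0 to 90.5 CPM in WT and 29.7 to 56.7 CPM in KO samples, with a log2 fold change of -0.81 (SE 0.12). *Fanca*, a subunit of the Fanconi anaemia core complex that repairs DNA crosslinks, was at 17.2 to 23.0 CPM in WT and 9.86 to 15.1 CPM in KO samples. *Basp1*, a membrane protein of growth cones, was at 179 to 193 CPM in WT and 139 to 150 CPM in KO samples, and *Ndn*, an imprinted gene expressed from the paternal allele, at 34.5 to 83.2 CPM in WT and 25.6 to 58.4 CPM in KO samples. The others were *Smyd5*, a SET and MYND domain protein, the kinase *Mast2*, *Psmb5* and the unnamed locus *0610010F05Rik*, and the 9 had log2 fold changes between -0.81 and -0.34.

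**Figure D2:**
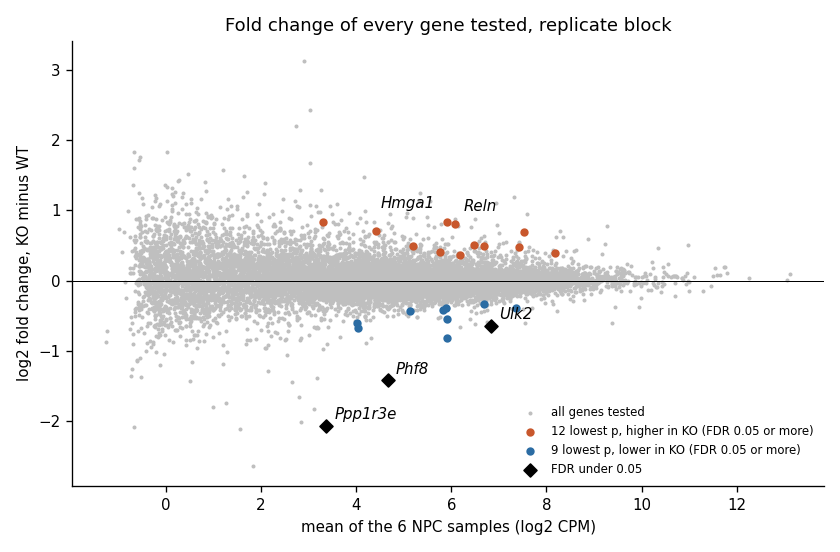
Log2 fold change of KO minus WT with the replicate block (vertical axis) against the mean of the 6 NPC samples as log2 CPM (horizontal axis) for the 14351 genes tested, with the genes of smallest p in colour and the genes with FDR under 0.05 as black diamonds. The 3 diamonds lie below 0, at -2.07, -1.42 and -0.64, and most genes of middle and high level lie close to 0.

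Over all genes tested the median log2 fold change was 0.00472 and its median size 0.103, and 98 genes (0.683%) were beyond 1 or -1 on that scale. Against that background the genes were grouped by function. Of 540 genes on 28 lists, 439 passed the expression filter, and *Phf8* was the only one called.

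Genes of DNA replication were lower in the KO in 34 of 38 cases, and genes of cyclins, CDKs and mitosis in 27 of 29. No member of either list passed the threshold in edgeR's test with the block, while 13 and 14 had an unadjusted p under 0.05, all of them lower, against 5.27% of all genes tested. The median log2 fold change was -0.136 for replication genes and -0.186 for mitosis genes. In all 3 pairs 19 of 38 and 20 of 29 were lower. By pair, the median log2 difference of the replication genes was -0.205, -0.106 and -0.176, and that of the mitosis genes -0.299, -0.0991 and -0.135. With the block and without replicate 1, 2 or 3 the medians were between -0.174 and -0.123 for replication and between -0.228 and -0.109 for mitosis genes. Without the block, single libraries moved them more. The replication median was -0.0179 without KO replicate 1, -0.0324 without WT replicate 2, -0.218 without WT replicate 1 and -0.305 without KO replicate 2. The mitosis median was -0.0616, -0.0571, -0.22 and -0.347 in the same order and -0.106 without KO replicate 3.

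*Mcm6*, a subunit of the replicative helicase, was at 124, 176 and 146 CPM in WT and 102, 142 and 121 CPM in KO replicates 1, 2 and 3. The KO sample was below its partner in each pair, but the genotypes overlapped because replicate 2 was the highest in both. Its log2 fold change was -0.29 (SE 0.05, edgeR FDR 0.331). *Pcna*, the sliding clamp of DNA polymerase, was at 58.0, 74.4 and 69.0 CPM in WT and 50.7, 58.8 and 59.0 CPM in the KO.

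For the mitotic genes named here replicate 2 was also the highest in both genotypes. *Cenpa*, the centromeric histone variant, was at 65.6, 85.7 and 59.5 CPM in WT and 53.3, 72.0 and 49.6 CPM in KO replicates 1, 2 and 3, with a log2 fold change of -0.27 (SE 0.06). The mitotic kinases *Aurka* and *Plk1* had log2 fold changes of -0.34 (SE 0.07) and -0.29 (SE 0.06), and the spindle checkpoint kinase *Bub1* one of -0.30 (SE 0.07). Replicate 2 held more RNA of these genes than the other numbers did, by the mean of WT and KO, in 36 of 38 replication genes and 25 of 29 mitosis genes.

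E2F and RB genes were lower in 8 of 13 cases, with a median of -0.085. *E2f4*, an E2F factor that acts with RB-family proteins, was at 45.1, 51.0 and 41.3 CPM in WT and 29.7, 40.9 and 34.3 CPM in KO replicates 1, 2 and 3, just without overlap. Its log2 fold change was -0.39 (SE 0.09, edgeR FDR 0.345). *E2f1* (-0.29, SE 0.09), *E2f5* (-0.19, SE 0.06) and *Tfdp1*, a dimer partner of E2F factors (-0.20, SE 0.07), also had log2 fold changes with an unadjusted p under 0.05. In all, 4 of 13 were lower at that p, against 5.27% of all genes tested.

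CDK inhibitors and p53 targets were higher in 14 of 20 cases with a median of 0.064, and 2 higher and 1 lower had an unadjusted p under 0.05, against 10.5% of all genes tested. The direction came from pair 2, since the medians by pair were -0.0195, 0.187 and -0.0406. Without replicate 2 the median was -0.0125, with 9 genes higher and 11 lower. *Cdkn2a*, the locus of p16 and ARF, was at 36, 32.9 and 32.9 CPM in WT and 38.6, 43.4 and 58.9 CPM in KO replicates 1, 2 and 3, a log2 fold change of 0.45 (SE 0.15, edgeR FDR 0.436).

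Genes of RNA polymerase I and the nucleolus, which make ribosomes, were lower in 22 of 31 cases, with a median of -0.084. An unadjusted p under 0.05 was found for 7 members, all lower, against 5.27% of all genes tested that were lower at that p. *Npm1*, an abundant nucleolar chaperone, was at 144, 176 and 152 CPM in WT and 130, 133 and 133 CPM in KO replicates 1, 2 and 3. *Nop56*, a core protein of box C/D snoRNPs, had a log2 fold change of -0.28 (SE 0.06). Neither passed the threshold, with edgeR FDRs of 0.363 and 0.345.

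Among chromatin genes, 12 partners of PHF8 and subunits of SET1 complexes had a median of -0.016. *Wdr5*, a core subunit of H3 lysine 4 methyltransferases, was at 62.2, 74.4 and 63.2 CPM in WT and 49.8, 58.7 and 53.5 CPM in KO replicates 1, 2 and 3, with a log2 fold change of -0.30 (SE 0.06, edgeR FDR 0.332). Histone lysine demethylases were balanced, 13 of 20 higher with a median of 0.00978 and none with an unadjusted p under 0.05. Of 13 methyltransferases for repressive marks 10 were lower, with a median of -0.072. The one with an unadjusted p under 0.05 was *Kmt5a*, which places the H4 lysine 20 monomethyl mark that PHF8 removes. It was at 103, 111 and 104 CPM in WT and 84.4, 91.2 and 93.0 CPM in KO replicates 1, 2 and 3, without overlap, with a log2 fold change of -0.25 (SE 0.06, edgeR FDR 0.345).

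Neural progenitor markers were higher in the KO in 18 of 22 cases with a median of 0.106, and the median was above 0 in each pair, at 0.102, 0.145 and 0.0992. Without replicate 2 it was 0.0666, and without the block it was 0.0704 without KO replicate 1, 0.0444 without WT replicate 2 and 0.188 without KO replicate 2. The 4 with an unadjusted p under 0.05 were all higher, against 5.24% of all genes tested that were higher at that p. Among them *Sox1*, a factor of early neural progenitors, was at 24.2 to 38.9 CPM in WT and 33.1 to 44.1 CPM in KO samples, and N-cadherin (*Cdh2*) and the RNA-binding protein *Msi1* had log2 fold changes of 0.39 (SE 0.12) and 0.36 (SE 0.11).

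In the Notch pathway, which keeps progenitors undifferentiated, 15 of 26 genes were higher and the median was 0.024. *Hes6*, an antagonist of Hes1, was at 134 to 164 CPM in WT and 173 to 184 CPM in KO samples, and the receptor *Notch3* at 177 to 235 CPM in WT and 238 to 251 CPM in KO samples. Receptors and feedback genes of the EGF and FGF pathways had a median of 0.018. *Fgfr2* (0.45, SE 0.09) and *Fgfr3* (-0.28, SE 0.09) had log2 fold changes in opposite directions.

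Interferon response genes were higher in 16 of 19 cases with a median of 0.171, and at 0.153, 0.141 and 0.126 in the 3 pairs. Without replicate 2 the median of the list was 0.0847. Imprinted genes were higher in 13 of 20 cases (median 0.093), and genes of the unfolded protein and amino acid stress responses in 12 of 20 (median 0.034). Cholesterol synthesis genes were lower in 18 of 22 cases (median -0.067) and hypoxia and glycolysis genes in 15 of 21 (median -0.109), while 8 meningeal fibroblast markers were evenly split (median -0.041). Those medians changed sign in 4, 2 and 10 of 22 settings of the test.

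Astrocyte markers were higher in 10 of 15 cases and lower in 5, with a median of 0.190 and log2 fold changes from -0.523 to 1.19. An unadjusted p under 0.05 was found for 3 higher and 1 lower, against 5.24% and 5.27% of all genes tested. The median of the list was 0.12 without replicate 2 and 0.0826 without replicate 3, and without the block it was -0.0395 without KO replicate 1 and 0.0172 without WT replicate 2. *Gfap*, the intermediate filament of astrocytes, was at 91.6, 17.4 and 164 CPM in WT and 363, 26.3 and 293 CPM in KO replicates 1, 2 and 3. Its log2 fold change, the highest on the list, was 1.19 (SE 0.34, edgeR FDR 0.441). Neuron markers were higher in 11 of 18 cases with a median of 0.242, by 0.378 and 0.325 in pairs 1 and 2 and by -0.0411 in pair 3. Among the 14 with at least 10 counts in every sample, 7 were higher and the median was 0.00612. Without the block the median was -0.0239 without KO replicate 1 and -0.0154 without WT replicate 2. Of the serotonin receptors 4 of 14 passed the filter and all 4 were low. *Htr2a* was at 0.581 to 1.49 CPM in WT and 0.841 to 1.19 CPM in the KO, a log2 fold change of 0.15 (SE 0.34).

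**Figure D3:**
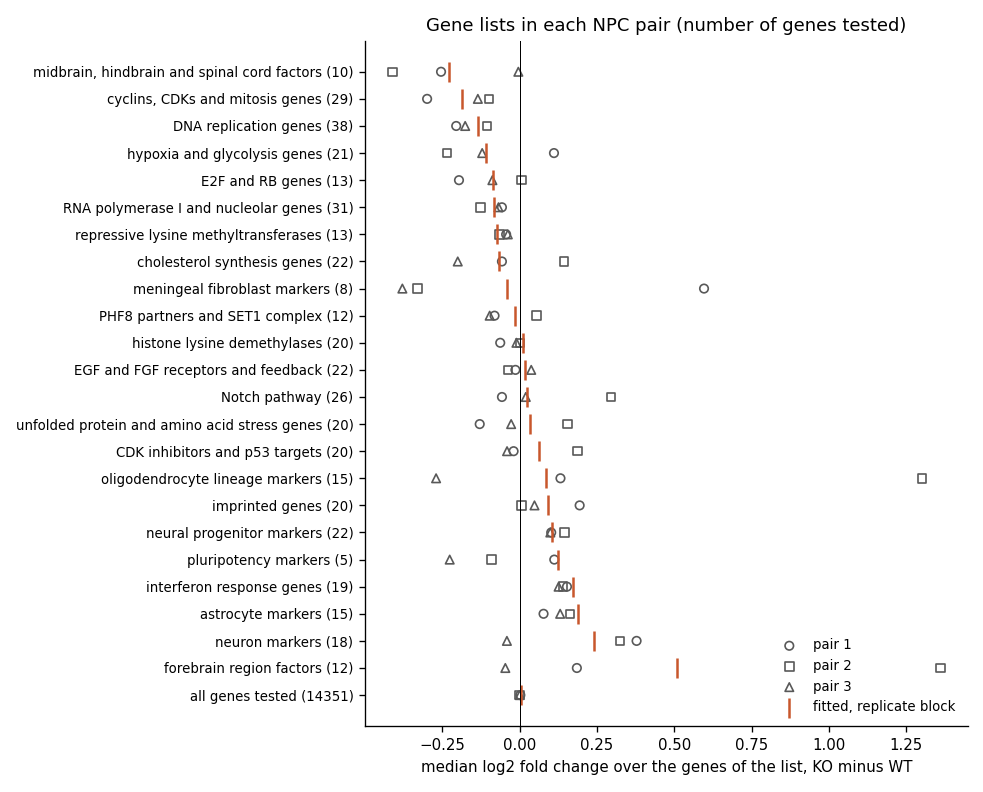
Median log2 fold change of KO minus WT over the genes of each list (horizontal axis), in each pair of same-numbered samples (open markers) and from the fit with the replicate block (orange bars), with the number of genes tested in brackets. Lists with fewer than 5 genes tested and the sex-linked genes are left out. The replication and mitosis lists lie below 0 in the 3 pairs and the progenitor and interferon lists above 0, while the forebrain and oligodendrocyte lists have 1 pair beyond 1.

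The second question was how much the replicate number itself accounts for, since it entered the comparison as a block. Of the sum of squares of log2 CPM over the 14351 genes, 70.66% went with the replicate number, 12.62% with the genotype and 16.71% with neither. These parts have 2, 1 and 2 degrees of freedom. Since a share grows with its degrees of freedom, the 12.62% also holds spread between samples and does not measure an effect of the KO. The first principal component held 62.1% of the variance. It placed WT replicate 2 at 59.7 and KO replicate 2 at 31.2, and the other 4 samples between -31.1 and -19.3. Genotypes were mixed along it.

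**Figure D4:**
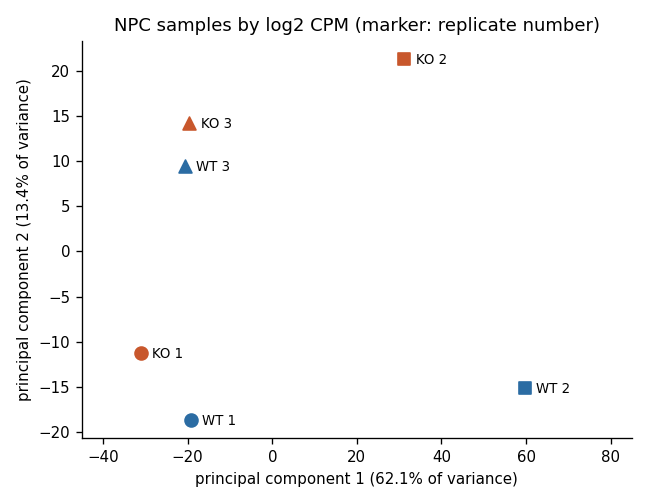
The 6 NPC samples on the first and second principal components of log2 CPM, with WT in blue, KO in orange and the marker shape giving the replicate number. Both samples of replicate 2 lie to the right, WT at 59.7 and KO at 31.2, apart from the other 4 on the left.

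In a test of the replicate number over both genotypes, edgeR called 2001 genes (13.9%) at the same FDR threshold. Replicate 2 was the number that stood apart in most of them, above the others in 642 genes and below them in 976. Without replicate 2 the count was 311, without replicate 1 it was 388, and without replicate 3 it was 1658.

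The smallest p belonged to *Rps3a1*, a ribosomal protein gene, at 2.42 and 2.9 CPM in WT replicates 1 and 2 but 41.1 CPM in WT replicate 3, and at 2.64, 2.17 and 41.4 CPM in the KO. Ribosomal protein genes have near-identical copies elsewhere in the genome, so this count is uncertain. The next genes followed replicate 2. *Cdk18*, a cyclin-dependent kinase of the nervous system, was at 18.6, 0.166 and 19.6 CPM in WT and 19.95, 0.280 and 19.8 CPM in KO replicates 1, 2 and 3. The brain tubulin *Tubb4a* was at 26.7 and 32.2 CPM in the 2 samples of replicate 2 and between 123 and 172 CPM in the other 4. *Neat1*, the RNA scaffold of paraspeckles, was highest in replicate 2, at 232 and 208 CPM, against 49.4 to 140 CPM elsewhere, and *Calcrl*, a receptor of calcitonin-family peptides, was at 121 and 108 CPM there against 31.2 to 40.5 CPM elsewhere. *Sirt2*, a deacetylase abundant in oligodendrocytes, was at 107 and 127 CPM in replicate 2 and at 295 to 428 CPM elsewhere. The microtubule protein *Map1b*, the GTPases *Rab33a* and *Rnd2*, the glucose transporter *Slc2a1*, the acetyl-CoA synthetase *Acss2*, *Man1c1*, *Pdzrn3*, *Snx30* and ENSMUSG00000029333 were also lowest in both samples of replicate 2.

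By list, the share of tested genes called in the replicate number test was highest for hypoxia and glycolysis genes, at 71.4% (15 of 21), for factors of the midbrain, hindbrain and spinal cord, at 70.0% (7 of 10), and for cholesterol synthesis genes, at 63.6% (14 of 22), against 13.9% of all genes tested. All 22 cholesterol genes tested were lowest in replicate 2. *Hmgcs1*, an early enzyme of the pathway, was at 1675 and 1723 CPM in the 2 samples of replicate 2 and between 2666 and 3883 CPM in the other 4. Mitosis genes were called in 55.2% and replication genes in 42.1% of cases.

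Among factors of brain regions, 7 of 10 on the midbrain, hindbrain and spinal cord list were called for the replicate number, but 2 of 12 on the forebrain list (16.7%). *En2*, a factor of the midbrain and anterior hindbrain, was at 17.7 and 17.4 CPM in WT and KO replicate 2 and between 2.26 and 6.83 CPM in the other 4 samples. *Irx2*, a patterning factor, was at 31.0 and 17.4 CPM in replicate 2 and between 8.83 and 9.86 CPM elsewhere. The forebrain factor *Six3* split WT replicate 2 from its partner. It was at 1.33 CPM in WT replicate 2 and between 40.7 and 63.4 CPM in the other 5 samples. Its log2 fold change between genotypes was 1.13 with an SE of 1.19. The median of the 12 forebrain factors tested was 0.510 over 3 pairs and 0.0849 without replicate 2.

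Oligodendrocyte genes had the widest range over replicate numbers among the lists, with a median range of 2.53 on the log2 scale against 0.294 over all genes tested. *Olig1* and *Olig2*, expressed from an earlier stage of the lineage, were even, with ranges of 0.32 and 0.04. The part of cell composition in these differences was not tested.

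The effect of the KO in NPCs was then set against the other tissues in models with an interaction of genotype and tissue. The number of genes whose KO effect differed from that in NPCs by edgeR's test at that threshold was 0 of 16612 for ESCs, 0 of 16631 for PFC and 0 of 16623 for STR. At an unadjusted p under 0.05 the counts were 1049 (6.31%), 1493 (8.98%) and 1189 (7.15%), and DESeq2 called 0, 23 and 20 genes.

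*Phf8* fell in each tissue. Within a tissue edgeR called 3.4% of genes tested in ESCs, 0.911% in PFC and 0.0517% in STR. Its log2 fold change was -1.42 (SE 0.08) in NPCs, -1.80 (SE 0.11) in ESCs, -1.37 (SE 0.11) in PFC and -1.38 (SE 0.14) in STR, and the edgeR FDRs of the difference from NPCs were 0.790, 0.949 and 1. *Ppp1r3e* was at 12.7, 20.2 and 16.7 CPM in WT and 9.79, 11.1 and 14.8 CPM in the KO in PFC, a log2 fold change of -0.49 (SE 0.16, edgeR FDR 0.212). In STR it was at 11.97, 13.25 and 11.35 CPM in WT and 10.9, 7.65 and 18.9 CPM in the KO, a log2 fold change of -0.04 (SE 0.28), and in ESCs it did not pass the filter. The genotypes overlapped in both brain regions. The difference from the NPC effect was 1.61 on the log2 scale for PFC (SE 0.22, edgeR FDR 0.0680) and 2.02 for STR (SE 0.35, edgeR FDR 0.35). DESeq2 gave these differences adjusted p-values of 0.0208 and 0.0217, and edgeR without the expression filter 0.00548 and 0.0750.

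*Ulk2* was lower in KO samples of PFC, at 156 to 163 CPM against 174 to 186 CPM in WT, and of STR, at 118 to 148 CPM against 155 to 166 CPM in WT, but passed the threshold in neither. Its log2 fold change was -0.18 (SE 0.07, FDR 0.291) in PFC, -0.34 (SE 0.09, FDR 0.293) in STR and 0.04 (SE 0.13, FDR 0.934) in ESCs in the edgeR test, and the edgeR FDRs of the difference from NPCs were 0.160, 0.615 and 0.588. Of the 12 genes of smallest p on the higher side in NPCs, 9 of 11 tested were also higher in the KO in ESCs, 8 of 12 in PFC and 10 of 12 in STR. The one called there was *Timp2* in ESCs, with a log2 fold change of 0.21 (SE 0.06, edgeR FDR 0.0195), beside 0.16 (SE 0.07) in PFC and 0.24 (SE 0.09) in STR. Its levels in ESCs, 158 ± 193 CPM in WT and 191 ± 239 CPM in the KO (SD, n = 2 each), differed widely between replicate numbers. Of the 12 on the lower side, with *Phf8*, *Ppp1r3e* and *Ulk2* among them, 7 of 11 were also lower in ESCs, 9 of 12 in PFC and 8 of 12 in STR. Each of these lower-side counts includes *Phf8*, the deleted gene. Shares of all genes tested that were higher or lower in each tissue were not computed, so the counts on either side do not show a shared effect. *Fanca* was lower in the KO in ESCs, with a log2 fold change of -0.38 (SE 0.07, edgeR FDR 0.00134), as was *Mast2*, with one of -0.27 (SE 0.07, edgeR FDR 0.00498). The level of *Fanca* there was 74.1 ± 4.51 CPM in WT and 57.4 ± 15.95 CPM in the KO (SD, n = 2 each). The KO samples thus differed widely for this gene. That of *Mast2* was 72.8 ± 0.277 CPM in WT and 60.5 ± 0.267 CPM in the KO. *Hmga1* and *Reln* had log2 fold changes of 0.09 (SE 0.06) and -0.03 (SE 0.50) in ESCs, of -0.07 (SE 0.11) and 0.27 (SE 0.08) in PFC and of 0.20 (SE 0.12) and 0.06 (SE 0.09) in STR.

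**Figure D5:**
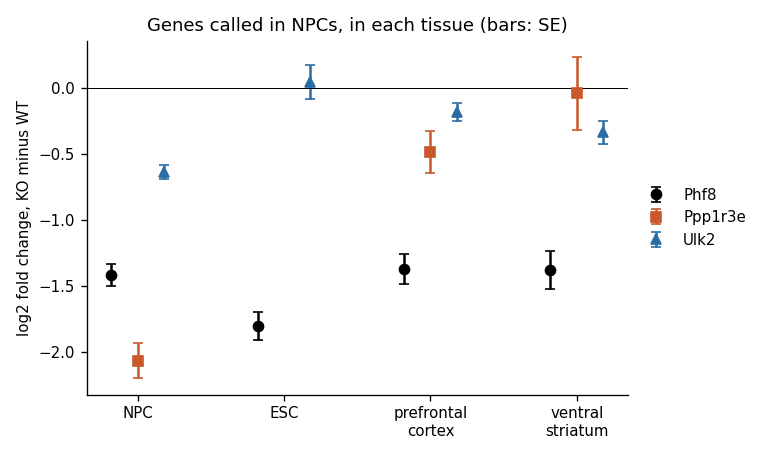
Log2 fold change of KO minus WT (vertical axis, points with SE bars) of the 3 genes called in NPCs, in NPCs, ESCs, prefrontal cortex and ventral striatum, each from a fit of that tissue with the replicate block. *Phf8* lies between -1.80 and -1.37 in all 4, *Ppp1r3e*, not tested in ESCs, goes from -2.07 in NPCs to -0.49 and -0.04 in the brain regions, and *Ulk2* from -0.64 in NPCs to between -0.34 and 0.04 elsewhere.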

How the data were processed

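Total RNA of NPCs was sequenced by the authors with the TruSeq RNA kit. Per the labels and the paper's methods, reads were aligned with STAR to mm10 and counted on Ensembl genes with HTSeq, with no use of strand per the file names. CASAVA 1.7 is named in the submitters' processing notes, and other versions are not given in the sources used here. Each deposited file holds the raw counts of 1 sample by gene, with no normalization. HTSeq's summary lines were left out. Reads aligned to several places were 33.2% to 34.3% and reads on no gene 6.70% to 9.21% of all, the latter highest in replicate 2.

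Counts were fitted in edgeR 4.0.16 (R 4.3.3) with TMM normalization, edgeR's expression filter, robust quasi-likelihood and the replicate number as a block, at an FDR of 0.05. The block was part of the rule that set this comparison. Deviations from the genotype means correlated at 0.524 to 0.705 across genes in same-numbered samples and at -0.559 to 0.292 in others. These correlations come from the same counts and are no independent support for the pairing. The biological coefficient of variation was 10.07% with and 21.17% without the block, with 2 and 4 residual degrees of freedom. No 2 libraries agreed within sampling noise. Interactions were fitted over NPCs and 1 other tissue each. CPM was computed here from the counts with the same scaling, log2 CPM with a prior count of 2, and RPKM with GENCODE M21 lengths. Of 39179 gene IDs, 37693 matched that annotation, which also gave names, positions and the exon sequences. Scripts were tested on simulated data.

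Genes were named by rule: those called, the 12 of smallest p on each side with 1 direction in all pairs, the KDM7 family, the 15 of smallest p for the replicate number, and list members with an unadjusted p under 0.05 or else of highest level. *Six3*, *En2*, *Irx2*, *Olig1*, *Olig2*, *Hmgcs1*, *Htr2a* and the cell type markers at 0 were chosen after their values were seen. The samples and gene lists were chosen with earlier results of these data known. Alternatives were RLE size factors, other filters, DESeq2 1.42.0, the likelihood ratio and exact tests of edgeR, a GC offset, no robust step, a joint fit with ESCs, a log2 fold change beyond 1 and leaving out samples. Some genes that the rule names are not reported here.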

Additional observations from a re-analysis of the deposited data

How the results depend on the processing

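The fold changes of *Phf8*, *Ppp1r3e* and *Ulk2* kept their direction under each alternative that gave them a value, but the count of genes called in KO against WT (3) depended on the test. It was 1 without the replicate block, 8 in a joint fit with ESCs, 13 (9 higher) without the filter, 20 (16 higher) in DESeq2 and 121 (86 higher) in the likelihood ratio test, both with the block, and 5 in DESeq2 without it. In DESeq2 with the block, independent filtering left 8069 genes, *Phf8* and *Ppp1r3e* among them, with no adjusted p. Without that filtering, an alternative chosen after seeing the data, the count was 19 and included all 3 genes. With 1 pair or 1 sample left out it ran from 0 to 13. *Hmga1*, not called in the main comparison, was called by 7 of 21 alternatives, *Reln*, *Timp2* and *Fndc3a* by 6 each. The median log2 fold change of the replication, mitosis, progenitor and interferon lists kept its sign in all settings, and that of the nucleolar and E2F lists in all but 1.

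The count for the replicate number (2001) ran from 311 to 1658 with 1 number left out and was within 1.5 times otherwise. The share of the sum of squares with the replicate number was 69.96% with a prior count of 0.5 and 75.36% over genes above 5 on the log2 CPM scale. Interactions with PFC were 20 without the filter and 23 in DESeq2, and with STR 4 and 20. The cause of these shifts was not tested. In the main edgeR test, leaving out the block changed no other call than those of *Ppp1r3e* and *Ulk2*. With 3 samples a genotype, small changes of genes with few counts may not be detectable. Larger changes of genes with many counts can also stay above the threshold. In the main edgeR test *Hmga1*, with a log2 fold change of 0.84, had an FDR of 0.111. *Timp2*, with one of 0.69 and means of 141 CPM in WT and 227 CPM in the KO, had an FDR of 0.272.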
